A study of Mus musculus with 18 samples.

Results

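The genes described here encode the proteins of the cytosolic ribosome. They were taken as the rows of the expression table that are marked protein coding and carry a ribosomal protein symbol (Rpl or Rps followed by a number, or Rplp0 to Rplp2), without pseudogene names and Rps6k kinases. The rule found 69 of the 10965 genes, 39 with an Rpl symbol (large subunit) and 30 with an Rps symbol (small subunit). It used names only and no measured value, although the set was proposed with earlier results of these data known. By the symbol it also takes Rps19bp1, which encodes a protein that binds RPS19 and is no ribosomal protein, the retrogene Rps27rt and 6 copies with "like" names. Ribosomal protein genes that are not rows of the table were not analysed here. The authors had filtered the table on level (at least 5 TPM in 3 libraries) and on variability over these libraries. Members that vary little could thus be absent, and the shares called describe the genes kept.

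The study asked how the transcription factor Zeb2 affects mouse embryonic stem cells (ESCs) as they leave the ground state. RNA was sequenced from Zeb2 -/- (KO) and Zeb2 fl/fl (Ctrl) ESCs of strain CD1, in 3 libraries for each genotype and day. At d0 the cells were feeder-free in 2i and LIF, a medium that holds ESCs in the ground state. At d4 they were embryoid bodies in medium with 15% serum, labelled multipotent progenitors. At d6 they had spent the last days in N2B27 with 500 nM retinoic acid and were labelled neural progenitors. The KO lines descend from floxed lines treated with Cre, so Ctrl cells carry the unrecombined floxed alleles, and which clones gave the libraries is not given in the sources used here. P-values rest on the spread between the 3 libraries of a group, pooled over the 6 groups and moderated across genes.

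Each ribosome joins a small subunit, which reads the mRNA, to a large subunit, which forms peptide bonds. Cells make the protein parts in matched amounts, and their mRNAs are known for a run of pyrimidines at the 5′ end through which mTOR signalling controls their translation. Growing ESCs make ribosomes in large numbers, and ribosome production is known to change as cells differentiate.

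The reads on the table's genes ranged from 9622622 to 15617675 per library, and a single member had between 1 and 44363 of them in a library. Zeb2 itself was at 7.81, 7.53 and 7.65 TPM (a level per transcript length, as a share of all transcripts) in Ctrl and 0.717, 0.594 and 0.733 in KO at d6, a log2 difference of -2.37 ± 0.12 (SE, adjusted p = 6.98e-11). At d0 it was below 0.14 TPM in every library, and the difference of -0.14 did not pass the test (adjusted p = 0.36). A gene is called where limma, on log2(TPM + 1), gave a p below 0.01 after Benjamini-Hochberg adjustment across the whole table, and this scale understates changes of low genes. The KO to Ctrl difference over all genes had its median at -0.07, -0.16 and -0.14 on d0, d4 and d6. Rescaling the libraries to a common median ratio moved these medians to -0.03, 0.00 and 0.01, and the share of called genes that were higher moved with them. At d4, 1397 genes were higher and 3591 lower as deposited, against 2300 and 2335 after rescaling, and at d6 the counts were 1967 and 3764 against 2804 and 2811.

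Sequences at the annotated start are given for a few members, picked to show long and short runs of pyrimidines. RefSeq windows (GRCm38.p6) matched 51 of the 69 members by symbol, and for each the window listed first was taken. The lines run from 10 bases before the start to 20 bases from it, 5′ to 3′, with the longest unbroken run of C and T in capitals. The first 4 have runs of 9 bases or more, and the others are members with short runs on which results below turn.
Rpl15: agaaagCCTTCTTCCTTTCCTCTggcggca
Rpl13a: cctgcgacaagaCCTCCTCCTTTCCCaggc
Rps12: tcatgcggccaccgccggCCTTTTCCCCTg
Rps24: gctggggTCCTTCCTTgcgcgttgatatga
Rpl4: TTTCCTgtgggagcagccgggtagagagga
Rps3: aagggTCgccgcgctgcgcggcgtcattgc
Rps27l: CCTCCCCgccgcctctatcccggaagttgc
Rpl10l: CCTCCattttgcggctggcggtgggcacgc

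In GRCm38 the Rpl15 window lies at chr14:18270967-18270996 on the minus strand, with a run of 17 bases. The Rpl13a window is at chr7:45128726-45128755 (minus, 14 bases), Rps12 at chr10:23787190-23787219 (minus, 11 bases) and Rps24 at chr14:24490668-24490697 (plus, 9 bases). Rpl4 is at chr9:64173377-64173406 (plus, 6 bases) and Rps27l at chr9:66946076-66946105 (plus, 7 bases). Rps3 is at chr7:99483690-99483719 (minus, 2 bases) and Rpl10l at chr12:66284382-66284411 (minus, 5 bases). A run of at least 8 pyrimidines stood in this window in 16 of 51 members (31.4%) and in 808 of 7221 genes of the table with a window (11.2%). Annotated starts can lie some bases away from the used ones, so a short run describes the annotation at that place. The 16 members with such a run had a median log2 difference of 0.24 at d4 and 0.35 at d6, and the 35 without it 0.36 and 0.29.

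Motif letters were also counted on both strands of the full windows, 250 bases before to 50 after the start. CACCTG, the letters of the E-box that Zeb2 is known to bind, stood in 6 of 51 members (11.8%) and in 18.4% of genes with a window. CACGTG, the E-box of Myc, stood in 7.84% of members and 10.5% of genes. CCGGAAG, the core bound by ETS factors, stood in 21 members (41.2%) against 17% of genes, and CTTTCC in 27 members (52.9%) against 26.2%. These matches are descriptions of letters. The 6 members with CACCTG had median differences of 0.27 at d4 and 0.43 at d6, and the 45 without it 0.34 and 0.29.

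The summed level of the 69 genes was alike in both genotypes at d0 and higher in KO at d4 and d6. At d0 the Ctrl libraries held 38848, 40080 and 37696 TPM and the KO libraries 39584, 37728 and 40185. At d4 the Ctrl sums were 35126, 33065 and 33706, and the KO sums 42468, 44252 and 42537. The d6 Ctrl libraries held 33291, 33650 and 33544 TPM and the d6 KO libraries 40216, 42268 and 45141. The genotypes overlapped at d0 and stood apart on both later days, where KO exceeded Ctrl by 9120 TPM at d4 and 9046 TPM at d6. As deposited, the mean sum was lower at d4 than at d0 in Ctrl and higher in KO. After rescaling by median ratio the differences were 1704, 12953 and 12571 TPM at d0, d4 and d6. The KO direction over time turned under this scaling, with a mean of 44108 ± 1890 (SD, n = 3) at d0 and 43023 ± 1045 at d4, while Ctrl went from 42403 ± 1553 to 30071 ± 1147. Members took 3.71% to 5.01% of all TPM of the table. The ratio of large to small subunit sums was 2.06 ± 0.11 (SD, n = 3) in Ctrl and 2.01 ± 0.08 in KO at d0, 2.12 ± 0.08 and 2.05 ± 0.09 at d4, and 2.13 ± 0.06 and 2.10 ± 0.05 at d6. Differences in that ratio were within the spread of the libraries.

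**Figure D1:**
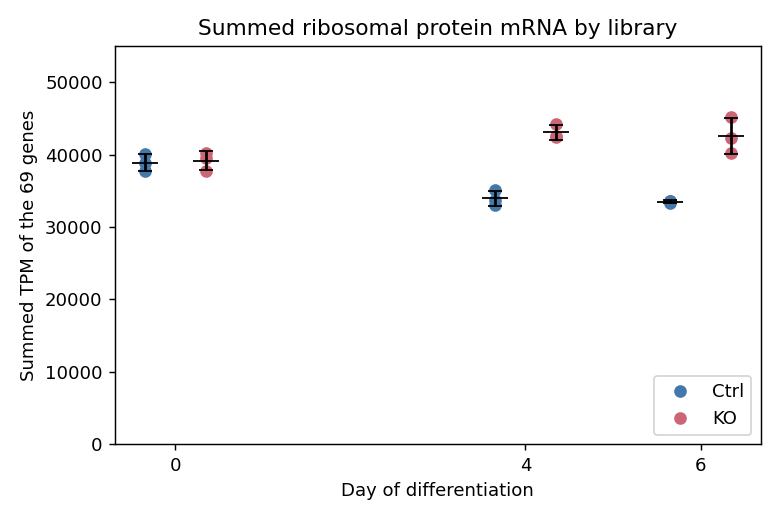
Summed TPM of the 69 ribosomal protein genes (y axis) by day (x axis), 1 point per library, Ctrl in blue and KO in red; black marks are the mean and SD of 3 libraries. KO libraries lie between 42468 and 44252 at d4, above the Ctrl range of 33065 to 35126.

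In the ground state few members differed. At d0, 9 members were higher in KO (13% of members, against 10.6% of all genes) and 1 was lower (against 16.4% of all genes). The median difference of the 69 genes was 0.11 on the log2 scale. KO libraries all stood above Ctrl libraries for 17 members, 24.6% against 19.9% of all genes.

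Rpl10l, a copy of the large subunit gene Rpl10 known for its role in male meiosis, had the largest difference at d0. Its TPM was 150, 151 and 139 in Ctrl and 426, 399 and 441 in KO. The groups stood far apart, by 1.52 ± 0.12 (adjusted p = 1.41e-07). Rps29, a small subunit protein, was at 45.5, 46.1 and 35 TPM in Ctrl and 91.7, 76.0 and 110 in KO (1.11 ± 0.15, adjusted p = 2.36e-05). Rpl13, a large subunit protein, was at 52.3, 45.2 and 48.7 TPM in Ctrl and 71.8, 85.4 and 79.2 in KO (0.68 ± 0.08, adjusted p = 5.04e-06). All KO libraries were above all Ctrl libraries for these genes. Rps12 followed with 0.79 ± 0.18 (adjusted p = 0.00219), a call lost without Ctrl d0 replicate 3 (adjusted p = 0.0127) or KO d0 replicate 2 (0.0128). Rpl11, a large subunit protein known to bind Mdm2 when ribosome assembly fails, was higher in KO by 0.68 ± 0.15 (adjusted p = 0.00215). That call was lost without Ctrl d0 replicate 2 (0.0143) or KO d0 replicate 2 (0.0129). Rpl10a, Rpl27a and Rpl36al were also called higher. The call of Rpl36al (0.39 ± 0.09, adjusted p = 0.00315) was lost without Ctrl d0 replicate 3 (0.0208) or KO d0 replicate 1 (0.0111) or 3 (0.0186).

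Rpl15, a large subunit protein, was the member called lower. It was at 66.9, 72.3 and 67.6 TPM in Ctrl and 57.1, 54.5 and 59.2 in KO, a difference of -0.27 ± 0.07 (adjusted p = 0.0044). The call was lost under both other scalings (adjusted p = 0.0212 and 0.018), and without Ctrl d0 replicate 2 (0.0239) or 3 (0.0109) or KO d0 replicate 1 (0.0133) or 2 (0.023).

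Position went with the d0 differences. Of the 9 members called higher, 5 lie on chromosome 8 or 12, which hold 6 members in all. Rpl10l, Rps29 and Rpl36al on chromosome 12 are among them. All genes of the table on chromosomes 8 and 12 had median differences of 0.33 and 0.36 at d0, against -0.07 for the whole table. At d4 these chromosomes had medians of -0.20 and -0.18, near that of all genes. Without chromosomes 6, 8, 12 and X, 59 members were left, of which 4 were higher and 1 lower at d0, with a median of 0.08.

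At d4, after the exit from 2i and LIF, the difference was broad. Here 34 of 69 members were higher in KO (49.3%, against 12.7% of all genes) and 0 were lower (against 32.7% of all genes). At an unadjusted p below 0.05, limma put 41 members higher and 1 lower. On the recovered reads voom called 43 higher and 0 lower. The median difference was 0.34, which is 0.50 above that of all genes. KO libraries all stood above Ctrl libraries for 46 members (66.7%, against 20% of all genes). Both subunits took part: 19 of 39 Rpl and 15 of 30 Rps genes were called higher, with medians of 0.32 and 0.37. Under median-ratio rescaling 42 members were higher (against 2300 of 10965 genes) and 0 lower (against 2335). Under quantile normalization 32 were higher and 0 lower.

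Rps3, a small subunit protein at the mRNA entry site that also acts in DNA repair, had the largest difference at d4. Its TPM was 716, 532 and 601 in Ctrl and 1126, 1140 and 919 in KO (0.79 ± 0.13, adjusted p = 7.05e-05). Every KO library was above every Ctrl library. Rps27l, a copy of the small subunit gene Rps27 that p53 is known to induce, was at 149, 120 and 136 TPM in Ctrl and 227, 228 and 195 in KO (0.68 ± 0.09, adjusted p = 1.16e-05). At d0 the same gene had been at 178 to 183 TPM on average in both genotypes. Rps29 again stood higher, at 32.0, 39.5 and 41.7 TPM in Ctrl and 66.5, 61.2 and 54.3 in KO (0.67 ± 0.15, adjusted p = 0.00102). Rps24, a small subunit protein mutated in some patients with Diamond-Blackfan anaemia, was higher in KO by 0.58 ± 0.11 (adjusted p = 0.000434). Rpl36al, a copy of Rpl36a, was higher by 0.54 ± 0.09 (adjusted p = 0.000139).

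The most abundant members were higher in KO as well. Rpl8, a large subunit protein near the peptidyl transferase centre, had the highest mean TPM of all members. It was at 7689, 7468 and 7129 TPM in Ctrl and 9381, 9643 and 9549 in KO at d4 (0.36 ± 0.07, adjusted p = 0.000566), and at 7882, 7787 and 7643 against 9217, 10052 and 11120 at d6 (0.38 ± 0.07, adjusted p = 0.00027). Rpl4, a large subunit protein that lines the exit tunnel, was at 7062, 6870 and 6970 TPM in Ctrl and 8157, 8829 and 8579 in KO at d4 (0.29 ± 0.06, adjusted p = 0.00122). The groups of both genes stood apart on both days. Rplp1, an acidic protein of the stalk that recruits elongation factors, was higher in KO by 0.38 ± 0.06 at d4 (adjusted p = 8.98e-05). Quantile normalization ended the calls of these 3 genes on both days. At d4 its differences were 0.42 for Rpl8 (adjusted p = 0.0133), 0.31 for Rpl4 (0.0149) and 0.10 for Rplp1 (0.463), so those of Rpl8 and Rpl4 were no smaller. At d6 they were 0.27 (0.084), 0.12 (0.307) and 0.10 (0.416). Rps15, a small subunit protein near the decoding site, was at 1583, 1427 and 1477 TPM in Ctrl and 2092, 2165 and 2004 in KO at d4 (0.48 ± 0.07, adjusted p = 1.9e-05).

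After retinoic acid the difference held a similar size. At d6, 36 members were higher in KO (52.2%, against 17.9% of all genes) and 0 were lower (against 34.3% of all genes), with a median of 0.29, which is 0.43 above that of all genes. KO libraries all stood above Ctrl libraries for 41 members (59.4%, against 22.7% of all genes). At an unadjusted p below 0.05, 42 were higher and 0 lower, and voom called 46 higher and 0 lower. The calls fell to 20 when only the d6 libraries were fitted, and rose to 45 under median-ratio rescaling (against 2804 of 10965 genes). Of the members called higher, 27 were called on both d4 and d6, which is 79.4% of the d4 list and 75% of the d6 list. Rpl13, Rpl36al and Rps29 were higher on all 3 days, and 21 members were called on none. The d4 and d6 calls of Rpl13 (0.32 and 0.30) were lost without Ctrl d4 replicate 1 or 3 (0.0101 and 0.0104) and without Ctrl d6 replicate 1 or 3 or KO d6 replicate 1 or 2 (0.0103 to 0.0167). The d6 call of Rpl36al (0.37) was lost without Ctrl d6 replicate 1 (0.0114) or KO d6 replicate 3 (0.0155).

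**Figure D2:**
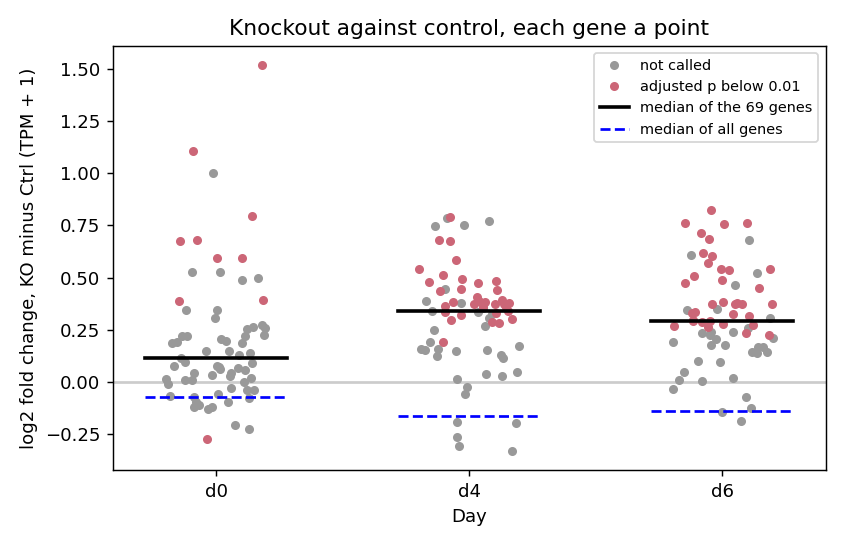
Log2 difference of KO minus Ctrl on log2(TPM + 1) (y axis) for each of the 69 genes (points) at d0, d4 and d6 (x axis); red points passed an adjusted p of 0.01, black lines are the members' medians and dashed blue lines the medians of all 10965 genes. The members' medians are 0.11, 0.34 and 0.29, above the all-gene medians of -0.07, -0.16 and -0.14.

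Rps4l, a gene on chromosome 6 named as a copy of Rps4x, led at d6. Its TPM was 728, 772 and 644 in Ctrl and 1075, 1294 and 1439 in KO (0.82 ± 0.10, adjusted p = 3.31e-06). At d4 the same gene had been at 1574, 1549 and 1432 in Ctrl and 1611, 1412 and 1703 in KO, with overlapping groups. The table marks it protein coding, and GENCODE M21 lists it as a transcribed processed pseudogene. Rps29 was at 25.3, 27.8 and 31.7 TPM in Ctrl and 41.8, 50.8 and 53.2 in KO (0.76 ± 0.15, adjusted p = 0.000291). Rps27l and Rpl13a, the latter a large subunit protein known for a second role in silencing interferon-response mRNAs, differed by 0.68 ± 0.09 (adjusted p = 6.48e-06) and 0.48 ± 0.09 (adjusted p = 0.000164).

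Other large differences at d6 passed narrowly. Rps13 was higher in KO by 0.76 ± 0.18 over a Ctrl mean of 13.3 TPM (adjusted p = 0.00186). That call was lost without Ctrl d6 replicate 1 (0.65, adjusted p = 0.0122) or KO d6 replicate 2 (0.64, 0.0124). Rpl37a was higher by 0.76 ± 0.21 (adjusted p = 0.00562), a call lost without Ctrl d6 replicate 1 (0.78, adjusted p = 0.0132) or 2 (0.68, 0.0256) or KO d6 replicate 3 (0.56, 0.0376). Rps12 was higher by 0.72 ± 0.18 (adjusted p = 0.00232), a call lost without Ctrl d6 replicate 2 (0.66, adjusted p = 0.0116) or KO d6 replicate 1 (0.59, 0.0145). Rps3 at d6 was higher by 0.51 ± 0.13 (adjusted p = 0.00233), a call lost without KO d6 replicate 3 (0.40, adjusted p = 0.0161) and under quantile normalization (0.31, 0.017). The differences themselves kept their sign in each of these settings.

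**Figure D3:**
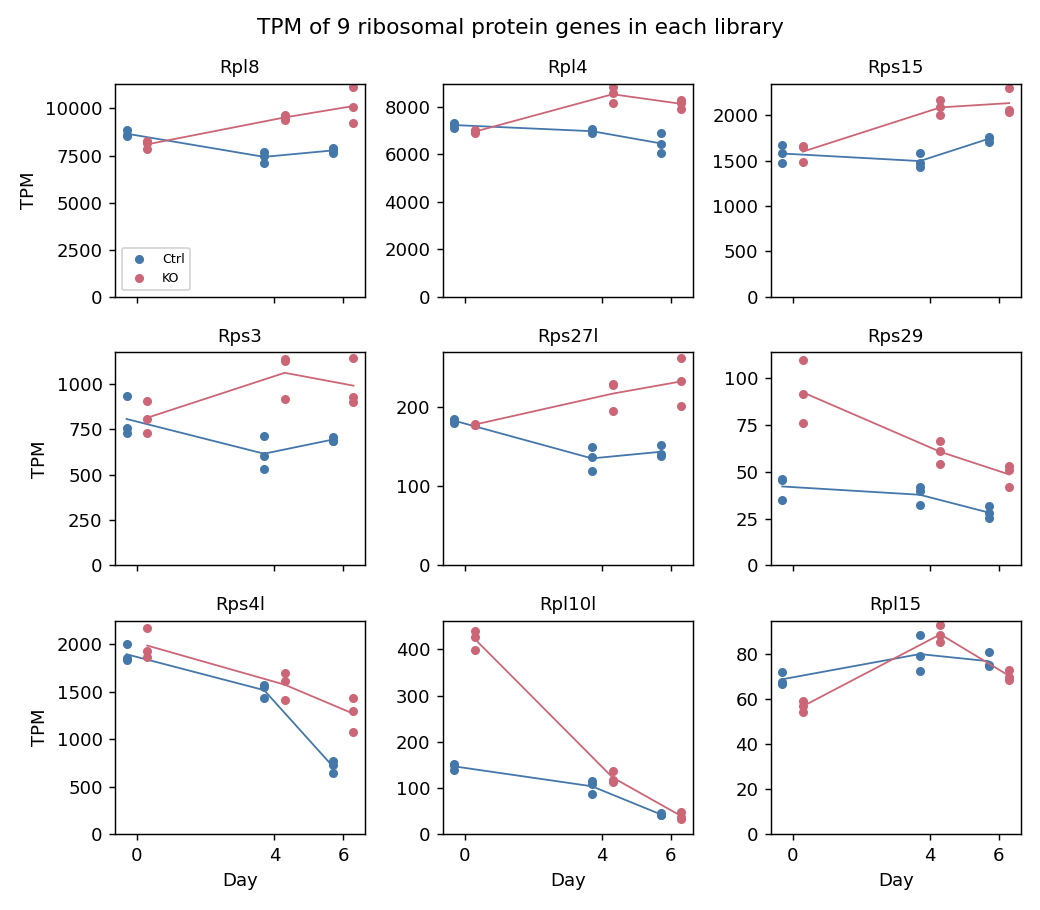
TPM (y axis, from 0) by day (x axis) for 9 members, 1 point per library, Ctrl in blue and KO in red, with lines through the group means. Rpl8, Rpl4, Rps15, Rps3 and Rps27l separate at d4, Rps4l separates at d6, and Rpl10l falls in both genotypes from 147 (Ctrl) and 422 (KO) TPM at d0.

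A few genes were called against the members' own median level. For this the median log2 of the members was taken off each library before the fit. Values on this scale are relative to that level and not to the median of the members' differences. At d0, 8 members were off the median (11.6%, against 32.2% of all genes), 4 above and 4 below. Rpl10l, Rps29 and Rpl13 were farthest above, by 1.30, 0.89 and 0.46, and Rpl15, Rps19bp1 and Rpl13a farthest below, by -0.49, -0.44 and -0.35. At d4, 5 members were off it (7.25%, against 57.7% of all genes), with Rps3 (0.44) and Rps27l (0.33) above and Rpl17 (-0.68), Rpl36 (-0.66) and Rpl10a (-0.55) below. At d6, 11 were off it (15.9%, against 66.7% of all genes), and all 11 were below it. The level taken off at d6 was 6.36, 6.28 and 6.26 in the Ctrl libraries and 6.63, 6.90 and 6.87 in KO. On average it differed by more than the upper quartile of the members' differences (0.48), so most members fall below 0 on this scale. That all 11 were below follows in part from the scale. Rpl10a (-0.69), Rpl10l (-0.64) and Rpl15 (-0.63) were farthest. The last count rose to 19 without KO d6 replicate 1, fell to 7 without Ctrl d6 replicate 2 and to 5 without KO d6 replicate 2, and the count at d4 fell to between 1 and 3 without Ctrl d4 replicate 2 or 3 or KO d4 replicate 1 or 2. At d0 it fell to 5 without Ctrl d0 replicate 2, KO d0 replicate 2 or KO d0 replicate 3.

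Rpl10a, a large subunit protein, was above Ctrl at d0 and below the members' median on both later days. At d0 it was at 96.9, 74.3 and 80 TPM in Ctrl and 115, 133 and 131 in KO, above Ctrl. At d6 it was at 75, 76.9 and 75.4 in Ctrl and 71.3, 76.1 and 54.1 in KO, with overlapping groups and a difference of -0.19 ± 0.12 (adjusted p = 0.195). Rpl36 was at 57.8, 52.2 and 62.5 TPM in Ctrl and 35.9, 54.6 and 50.2 in KO at d4, overlapping, and at 56.0, 52.5 and 58.9 against 85.0, 80.1 and 80.1 at d6, apart (0.54 ± 0.14, adjusted p = 0.00279). Fitting only the libraries of a day also ended the d0 calls of Rps12, Rpl11 and Rpl15 (0.0151, 0.0111 and 0.0113), the d4 call of Rpl4 (0.0146) and the d6 calls of Rpl8, Rpl4, Rplp1, Rps15, Rpl13, Rpl36al, Rpl7l1 and Rpl39 (0.0165 to 0.0572). The d6 call of Rpl36 was lost without Ctrl d6 replicate 2 (0.0134) or KO d6 replicate 1 (0.0107).

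Within each genotype, members fell in Ctrl and divided in KO on leaving the ground state. In Ctrl, 4 members were higher at d4 than at d0 (against 45.1% of all genes) and 19 lower (27.5%, against 22.3% of all genes), with a median of -0.22, and -0.49 relative to all genes. In KO, 11 were higher (15.9%, against 35.8% of all genes) and 17 lower (24.6%, against 20.9% of all genes), with a median of -0.07. These comparisons share the d4 and d0 libraries with the genotype comparisons above and are no separate evidence. The split depends on the scaling. Under median-ratio rescaling 0 members were higher and 48 lower in Ctrl (against 3601 and 3683 of 10965 genes). In KO 3 were higher and 22 lower (against 3054 and 3163 of 10965 genes), the 22 a share near that of all genes. Quantile normalization gave 3 and 27 in Ctrl and 12 and 17 in KO. The 4 calls of higher members in Ctrl fell to 1 without Ctrl d0 replicate 1 or Ctrl d4 replicate 1, and to 2 without Ctrl d0 replicate 3. In KO the 11 higher calls fell to 7 without KO d0 replicate 2 or KO d4 replicate 2, and the 17 lower calls fell to 10 without KO d0 replicate 3 and 11 without KO d4 replicate 1.

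Rps15 and Rpl4 rose in KO from d0 to d4 by 0.38 (adjusted p = 9.2e-05) and 0.29 (adjusted p = 0.00077), and in Ctrl their changes were -0.08 and -0.05 (adjusted p = 0.31 and 0.48). Rps27l fell in Ctrl by 0.44 on the log2 scale (adjusted p = 0.00035), and its change in KO was 0.28 (adjusted p = 0.012). Rpl10l and Rps4l fell in both genotypes between d0 and d4. From d4 to d6 few members moved. In Ctrl 0 were higher (against 22.6% of all genes) and 7 lower (10.1%, against 21.5% of all genes). At an unadjusted p below 0.05, 7 were higher in Ctrl. By voom 1 was called higher, and without Ctrl d4 replicate 1 limma called 3. In KO 2 were higher (2.9%, against 21.5% of all genes) and 9 lower (13%, against 19.9% of all genes), and the 2 rose to 4 without KO d4 replicate 2 or KO d6 replicate 1. Rps4l and Rpl10l fell most in Ctrl, by 1.09 and 1.24 on the log2 scale (adjusted p = 2.2e-07 and 2.9e-07).

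The course over the 3 days was tested as the joint difference in change since d0. It differed between genotypes for 20 of 69 members (29.0%), against 48.7% of all genes. The change from d0 to d6 passed by itself for 15 of the 20. In 17 the KO to Ctrl difference was larger in the positive direction at d6 than at d0, among them Rpl8 (0.48), Rpl13a (0.60), Rps27l (0.72) and Rps4l (0.76). In the other 3, Rpl10l (-1.66), Rpl10a (-0.78) and Rpl13 (-0.39), it became smaller.

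The copies differed among themselves. Rpl7l1, a copy of Rpl7 with a known role in early development, was at 231, 212 and 201 TPM in Ctrl and 274, 292 and 260 in KO at d4 (0.36 ± 0.08, adjusted p = 0.00124), apart. Rpl7 differed by 0.49 ± 0.10 on that day (adjusted p = 0.000684). At d6 the values were 0.26 ± 0.08 for Rpl7l1 (adjusted p = 0.00945), a call lost without Ctrl d6 replicate 2 or 3 or KO d6 replicate 2 or 3 (0.0132 to 0.0614), with the replicate number as a block (0.0155) and with no trend (0.0167), and 0.26 ± 0.10 for Rpl7 (adjusted p = 0.037). Rpl39l, the low-level copy of Rpl39, was at 14.8, 14.7 and 13.6 TPM in Ctrl and 16.0, 18.6 and 13.6 in KO at d6, with overlapping groups (0.14 ± 0.20, adjusted p = 0.561). Rpl39, on the X chromosome, was at 107, 69 and 53.3 in Ctrl and 98.1, 123 and 116 in KO at d6, also overlapping. Its difference of 0.60 ± 0.18 passed (adjusted p = 0.00752), a call lost without Ctrl d6 replicate 2 or 3 or KO d6 replicate 2 or 3 (0.0244 to 0.0516), with the block (0.011) and with no trend (0.0112). Rps4x, on the X chromosome, was at 184, 170 and 182 TPM in Ctrl and 243, 252 and 235 in KO at d4 (0.44 ± 0.08, adjusted p = 0.000125). At d6 Rps4x differed by 0.14 ± 0.08 (adjusted p = 0.109), on the day on which Rps4l differed most. Rps27l, Rpl36al and Rpl10l are described above, and Rpl10, Rpl36a and Rps27 were not analysed here.

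How well a member can be counted depends on how much of its mRNA other genes share. For each member, every 36-base stretch (the read length) of one annotated transcript was searched in the transcripts of all other genes. The shared percentage ranged from 0 to 91.4 with a median of 57, and 11 members were above 80. Members under 50% (31 genes) had a median of their mean TPM of 176, and the other 38 of 70.5, so levels of members set side by side carry this difference. Of the 31, 19 were higher at d4 and 19 at d6, with medians of 0.34 and 0.33. Of the 38, 15 and 17 were higher, with medians of 0.34 and 0.28. Among named genes Rps3, Rpl8 and Rpl10l hold little shared sequence (6.25%, 9.44% and 18.1%), and Rps12, Rps13, Rpl36 and Rpl13 hold over 80%, so reads of these 4 are uncertain between the gene and its copies. In members with a mean TPM under 30, 0 of 13 were called higher at d4 and 1 at d6, against 13 of 17 on both days in those over 300.

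**Figure D4:**
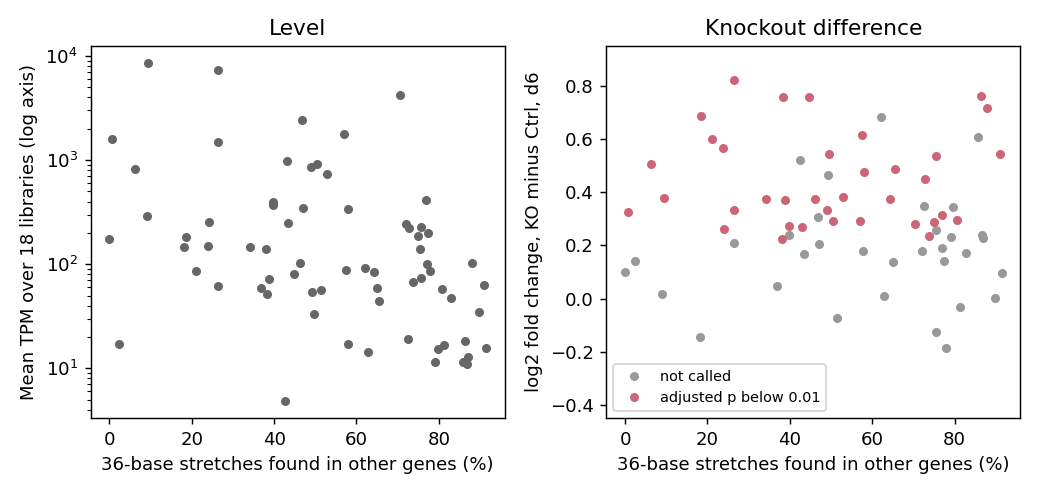
Percentage of a member's 36-base stretches found in transcripts of other genes (x axis, both panels) against mean TPM over the 18 libraries (left, log axis) and against the log2 difference of KO minus Ctrl at d6 (right, red points passed an adjusted p of 0.01). The 31 members under 50% and the 38 others had median differences of 0.33 and 0.28.

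Pseudogenes named after ribosomal protein genes were called higher in shares near those of all genes, but none was called lower. Of the 73 in the table, 0 were called either way at d0 (against 10.6% of all genes higher and 16.4% lower). At d4, 12 were higher (16.4%, against 12.7% of all genes) and 0 lower (against 32.7%). At d6, 11 were higher (15.1%, against 17.9%) and 0 lower (against 34.3%). Their medians were 0.38 and 0.22, against -0.16 and -0.14 for all genes. Differences were positive for 61 of 73 at d4 and 50 at d6, against 4041 and 4400 of 10965 genes. Rpl17-ps5 was at 14, 10.4 and 13.6 TPM in Ctrl and 34.6, 39.7 and 47.5 in KO at d6 (1.60 ± 0.26, adjusted p = 5.28e-05), and Rps24-ps2 differed by 1.59 ± 0.38 (adjusted p = 0.0018). At an unadjusted p below 0.05, limma put 1 pseudogene higher and 0 lower at d0, 25 and 0 at d4, and 18 and 0 at d6, and voom called 0, 18 and 14 higher and 0 lower on these days. After median-ratio rescaling 19 and 17 were higher at d4 and d6 (against 2300 and 2804 of 10965 genes). Their sequence is near that of their parents, so these values are uncertain in the same way. The 37 members with no pseudogene of their name in the table had a median of 0.36 for d4 and 0.33 for d6.

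Components of the ribosome outside the symbol rule were looked at as well. Gnb2l1, the scaffold protein RACK1 of the small subunit, was at 956, 853 and 848 TPM in Ctrl and 1156, 1184 and 1103 in KO at d4, apart (0.38 ± 0.07, adjusted p = 0.000443), and differed by 0.35 ± 0.07 at d6 (adjusted p = 0.000679). Fau, the source of a small subunit protein, differed by 0.24 ± 0.14 and 0.28 ± 0.14 at d4 and d6 (adjusted p = 0.147 and 0.0879).

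Genes that build ribosomes were also called higher in KO more often than all genes. Of 92 ribosome biogenesis factors, 57 were higher (62%, against 12.7% of all genes) and 1 lower (against 32.7%) at d4. At d6, 67 were higher (72.8%, against 17.9%) and 0 lower (against 34.3%). Their medians were 0.30 and 0.36. Nhp2, a core protein of the H/ACA particles that modify rRNA, was at 254, 270 and 244 TPM in Ctrl and 475, 516 and 588 in KO at d6 (1.03 ± 0.08, adjusted p = 1.33e-08). Gnl3, nucleostemin, differed by 0.82 ± 0.11 (adjusted p = 7.29e-06). Of 12 genes of RNA polymerase I and its factors, 5 were higher on both d4 and d6 (41.7%, against 12.7% and 17.9% of all genes). None was lower on either day (against 32.7% and 34.3% of all genes). Rrn3, which brings the polymerase to the rDNA promoter, was higher in KO by 0.78 ± 0.06 at d6 (adjusted p = 3.56e-08). Polr1d, a subunit shared with RNA polymerase III, was higher by 0.62 ± 0.07 (adjusted p = 7.98e-07). At an unadjusted p below 0.05, limma put 1 biogenesis factor lower at d6, and 2 and 1 genes of the polymerase list lower at d4 and d6, and voom called 0 lower in these comparisons. After median-ratio rescaling 8 and 7 genes of the polymerase list were higher at d4 and d6 (against 2300 and 2804 of 10965 genes). From d0 to d4, 0 of its 12 genes were higher and 6 lower in KO (against 35.8% and 20.9% of all genes).

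Genes of the mitochondrial ribosome, a separate particle, were higher in KO than in Ctrl too. Of its 57 genes, 24 were higher (42.1%, against 12.7% of all genes) and 0 lower (against 32.7%) at d4. At d6, 23 were higher (40.4%, against 17.9%) and 0 lower (against 34.3%). The medians were 0.27 and 0.19. At an unadjusted p below 0.05, 2 were lower at d4 and 0 at d6, and voom called 0 lower on both days. After median-ratio rescaling 41 and 36 were higher at d4 and d6 (against 2300 and 2804 of 10965 genes). From d0 to d4, 5 of the 57 were higher and 20 lower in KO (against 35.8% and 20.9% of all genes). In Ctrl 1 was higher and 37 lower (against 45.1% and 22.3% of all genes). Mrps18b and Mrpl15 were higher in KO by 0.82 ± 0.10 and 0.77 ± 0.08 at d6 (adjusted p = 2.73e-06 and 3.42e-07). Of 15 elongation and release factors, 9 were higher on both d4 and d6 (60%, against 12.7% and 17.9% of all genes). On each day 1 was lower (against 32.7% and 34.3% of all genes). Those higher at d6 included Eef1a2 (1.63 ± 0.28, adjusted p = 0.000113). Eef1e1, which is in the list and has an elongation factor name but is not itself one, was also higher (0.78 ± 0.08, adjusted p = 7.96e-07). Of 36 initiation factors, 12 were higher on both days (33.3%, against 12.7% and 17.9% of all genes). At d4 2 were lower and at d6 5 (against 32.7% and 34.3% of all genes). Their medians were smaller than those of the members, at 0.08 and 0.11, and 0.01 at d6 under quantile normalization. At d6 Eif2b3, a subunit of the exchange factor eIF2B, was higher in KO by 0.53 ± 0.07 (adjusted p = 8.8e-06). Eif4g3, a scaffold of the cap-binding complex, was lower by 0.54 (SE 0.06, adjusted p = 2.31e-06). Initiation factors split 20 and 1 at d4 and 21 and 3 at d6 after median-ratio rescaling. All genes then split 2300 and 2335 at d4 and 2804 and 2811 at d6. Under quantile normalization initiation factors split 14 and 5 at d4 and 12 and 6 at d6.

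The Myc and mTOR list, regulators of ribosome production, divided. Of its 21 genes 5 were higher (23.8%, against 12.7% of all genes) and 7 lower (against 32.7%) at d4. At d6, 5 were higher (23.8%, against 17.9%) and 9 lower (against 34.3%). Its medians of -0.03 and -0.09 turned to 0.14 and 0.07 after median-ratio rescaling, where 7 were higher and 4 lower at d4, and to 0.03 and 0.02 under quantile normalization, where the split was 5 and 3. At d6 more of the list stayed lower after median-ratio rescaling, with 5 higher and 8 lower. All genes split 2300 and 2335 at d4 and 2804 and 2811 at d6 under that scaling. Deptor, an inhibitor of mTOR, was higher in KO by 1.78 ± 0.11 at d6 (adjusted p = 1.28e-09). Mxd4, an antagonist of Myc, was lower by 1.86 (SE 0.15, adjusted p = 1.86e-08).

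**Figure D5:**
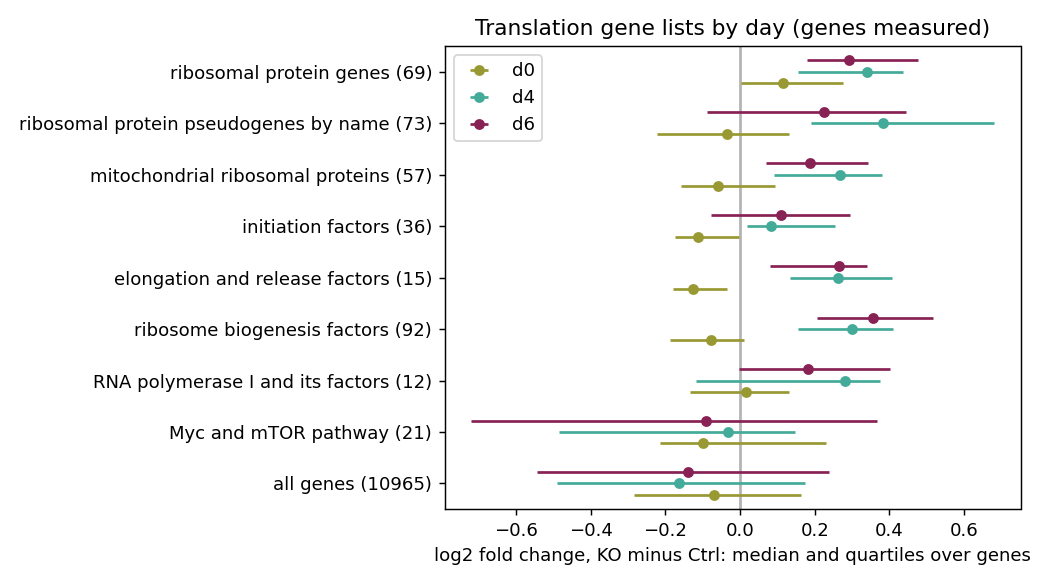
Log2 difference of KO minus Ctrl on log2(TPM + 1) (x axis) for the members, related gene lists and all genes (y axis, number of genes measured in parentheses) at d0, d4 and d6; points are medians over genes and bars their quartiles. Ribosome biogenesis factors had medians of -0.08, 0.30 and 0.36, and all genes -0.07, -0.16 and -0.14.

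Markers of cell state also differed between the genotypes. The 10 pluripotent cell markers, all detected, summed to between 3028 and 3679 TPM in Ctrl and 4429 and 4914 in KO at d4, and to between 1030 and 1175 in Ctrl and 3475 and 3734 in KO at d6. At d6, 7 of them were higher and 1 lower (against 17.9% and 34.3% of all genes), led by Tdgf1 (3.81) and Utf1 (3.08). Of 10 neural markers listed, 8 were in the table. All 8 were lower in KO at d6 (against 34.3% of all genes), led by Pax6 (-4.29) and Neurog1 (-4.13). In d6 Ctrl libraries all 8 had a mean of at least 1 TPM. The table keeps only genes with at least 5 TPM in 3 libraries. A marker low in the other groups could enter only through the Ctrl libraries, so these counts do not test the label of neural progenitors. In d6 KO libraries 4 of the 8 had a mean under 1 TPM. Summed neural markers were at 428 to 476 TPM in Ctrl and 94.2 to 115 in KO on that day. The 6 endoderm markers were all lower in KO at d6 (against 34.3% of all genes), led by Afp (-3.21) and Gata6 (-2.30). The 6 summed to 92.3 to 133 TPM in Ctrl and 18.8 to 26.9 in KO. Of 4 mesoderm markers 3 were lower and 1 higher (against 34.3% and 17.9% of all genes), with Meox1 at -6.47 and Eomes at 1.86. The 4 summed to 143 to 195 TPM in Ctrl and 14.3 to 18.6 in KO. The limit set by the level filter also applies to endoderm and mesoderm markers low in the other groups. Endoderm sums were at most 26.9 TPM outside the d6 Ctrl libraries, and mesoderm sums at most 18.6 outside Ctrl at d4 and d6. Of 5 trophectoderm markers 3 were lower (against 34.3% of all genes), among them Krt19 (-1.32) and Gata3 (-0.87). The 5 had overlapping sums of 1190 to 1828 TPM in Ctrl and 1079 to 2118 in KO. At d0 the pluripotent sums overlapped, at 5565 to 5823 TPM in Ctrl and 5244 to 5614 in KO. Neural sums were already apart on that day, at 191 to 235 TPM in Ctrl and 106 to 121 in KO. On that day 3 of 8 neural markers were lower (against 16.4% of all genes). In bulk RNA, more cells of one state and more RNA per cell cannot be told apart, and the part of this difference in cell state in the ribosomal protein values was not tested.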

How the data were processed

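The 18 RNA-seq libraries were sequenced by the authors as single 36 bp reads. Per the submitters' notes, mapping to GRCm38 used TopHat2 2.0.13 and counting per gene used featureCounts 1.4.6, and the authors deposited TPM values for genes that passed their filters on level (at least 5 TPM in 3 libraries) and variability. The deposited table also holds a variance, a standard deviation and a variability score per gene, which were not used. Of 11046 entries, 81 repeats were dropped.

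Genes were compared on log2(TPM + 1) by limma (version 3.58.1, run under R 4.3.3) with 1 mean per group and a trend in the variance prior, and p-values were adjusted over 10965 genes by Benjamini-Hochberg. The course was a moderated F test. Reads (9622622 to 15617675 per library) were recovered for all 10965 genes as whole multiples of a step per gene and library (tolerance 1e-06) after taking off 1 read that every gene appears to have been given, for depth and the voom setting. Counts were simulated for all 10965 genes with the same noise level, and changes were put in at d4 and d6 only. The changed genes came only from those above a minimum read level, so the rates do not describe low members. Of 100 such genes with a log2 change of 1, 99 and 98 were called at d4 and d6, and 33 and 42 of 100 with a change of 0.5. Positions came from GENCODE M21 and start windows from RefSeq. Tables and figures used Python, numpy, pandas and matplotlib.

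The members and lists were chosen with earlier results of these data known. Genes were named by rule: Zeb2, the 5 largest calls per day and direction, the 3 members farthest from the member median per day and direction, the 5 most abundant members, copies and their parents, components outside the rule, and 2 genes per other list. Alternatives, whose effect is given in the closing section, were pseudocounts 0.1 and 5, a mean TPM of at least 10, both scalings, other fits and leaving out each library. A split at 50% shared sequence was chosen after seeing the data. Some genes that this rule names are not reported here.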

Additional observations from a re-analysis of the deposited data

Results flagged for a closer look

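Whether the KO to Ctrl difference changed between days was tested by itself (a moderated F test in limma over the 2 changes since d0, adjusted over all genes). The test passed for 20 of 69 members (29%, against 48.7% of all genes), a smaller share than over the whole table. Values are the change of the log2 difference from d0 to d6. Among the named members it was positive for Rpl13a (0.605), Rps3 (0.491), Rps27l (0.722), Rps4l (0.755), Rpl8 (0.476), Rpl4 (0.388), Rps15 (0.272), Rpl36 (0.286) and Rpl15 (0.146), and negative for Rpl10l (-1.66), Rpl10a (-0.779) and Rpl13 (-0.386). Of these, the change from d0 to d6 did not pass by itself for Rps3, Rps15, Rpl36 and Rpl15 (adjusted p = 0.0278, 0.0225, 0.229 and 0.206).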

How the results depend on the processing

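Of 356 values recomputed under other settings, 297 stayed within 1.5 times the count or within the spread of the libraries, and no called value changed direction. The summed difference at d0 (291 TPM) changed sign without Ctrl d0 replicate 3 (-298) or KO d0 replicate 3 (-219). The cause of the other changes was not tested. The 1 member lower in KO at d0 became 0 under median-ratio rescaling, quantile normalization, voom on the recovered reads and a fit of the compared groups only. Members off their own median became 28 at d0 and 4 at d6 by voom, 26 at d6 under quantile normalization, and 3 at d4 and 5 at d6 with the compared groups only. The median difference was 0.51 at d4 and 0.46 at d6 under median-ratio rescaling, and 0.51 and 0.45 by voom. With the compared groups only, 20 members were higher at d6, 11 lower in KO from d0 to d4, and 1 higher and 5 lower in KO from d4 to d6. Members higher in Ctrl at d4 than at d0 were 0 under median-ratio rescaling and voom and 2 with a mean TPM of at least 10, the compared groups only and no trend. Those lower were 48 under median-ratio rescaling and 50 by voom. Members higher in Ctrl at d6 than at d4 were 3 under quantile normalization and 1 with pseudocount 5, a mean TPM of at least 10 and voom. In KO, 3 members were higher at d4 than at d0 under median-ratio rescaling and 5 by voom. Summed TPM differed by 1704, 12953 and 12571 TPM after median-ratio rescaling.

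Leaving out 1 library at a time gave 7 to 9, 27 to 32 and 27 to 33 members higher at d0, d4 and d6, and 0 to 1 lower at d0. Members off their median were 5 to 11, 1 to 5 and 5 to 19. From d0 to d4, 1 to 3 were higher and 15 to 21 lower in Ctrl, and 7 to 13 higher and 10 to 16 lower in KO. From d4 to d6, 0 to 3 were higher in Ctrl, and 2 to 4 higher and 6 to 10 lower in KO. The course differed for 14 to 22, and the summed difference at d0 ranged from -298 to 1010 TPM.

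Replicate numbers are shared by the groups but no source ties them to a batch. Of 45 same-number pairs, 29 had correlated deviations over 0.1 (median 0.15, from -0.0926 to 0.336). With the replicate number as a block, 9, 33 and 35 members were higher at d0, d4 and d6, 2 were higher in Ctrl at d4 than at d0 and 1 at d6 than at d4, and of the named members Rpl7l1 and Rpl39 lost their d6 calls. Depth limits the lowest members, which had as few as 1 read in a library.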
